A study of Rattus norvegicus with 24 samples.

Results

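The genes described here make cholesterol or hold its synthesis in check. They are 8 genes of rat: Hmgcs1, Idi1, Fdps, Fdft1, Sqle, Lss and Cyp51, which are enzymes, and Insig1, a regulator. Members were taken as the probe sets (groups of short probes for 1 transcript) whose only gene symbol in the array annotation was one of these names. That gave 11 probe sets for 7 of the 8 genes, out of 12783 probe sets with 1 symbol and 10411 genes. Hmgcs1 has no probe set under its own symbol in that annotation and was not analysed here. All 7 measured genes reached a signal of 100 on at least 12 of the 24 arrays, as did 8452 genes in all.

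The arrays followed natural aging in male Sprague Dawley rats, with no treatment, deletion or transgene in any group. RNA came from 6 tissues, namely liver, kidney, bone, hypothalamus, pituitary and spleen lymphocyte. Rats were 4, 10, 18 or 24 months old, which made 24 groups with 1 array each. Each array held 1 pool of RNA from 10 rats, and the tissues of an age were taken from the same 10 rats. A group therefore has no replicate, and the spread between rats cannot be seen. Tissue differences were tested over the 4 ages, and age differences over the 6 tissues.

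Cells build cholesterol from acetyl units through the mevalonate pathway. Early enzymes make the activated isoprene unit, the next ones join these units into farnesyl diphosphate and squalene, and the last ones oxidise, close and trim the ring. The transcription factor SREBP-2 turns these genes on together when sterols in the endoplasmic reticulum are low, and the INSIG proteins hold its escort SCAP back when sterols are high. Liver makes cholesterol for lipoproteins and bile acids, while the brain makes its own because plasma cholesterol hardly enters it.

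Signal medians of the arrays lay between 213 and 309, and 75.9% to 82.4% of the genes reached 100. Markers of the labelled tissue stood highest in that tissue. The summed signal of 14 hepatocyte markers was 468012 to 515779 in liver and 1263 to 7451 on all other arrays but 1. That one was the hypothalamus at 10 months, with 18428. Array weights, which fall as an array departs from the fitted tissue and age, were lowest for bone at 4 months (0.317), bone at 18 months (0.338) and kidney at 18 months (0.375). In these tissue samples, fewer cells of a type and less RNA per cell cannot be told apart.

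Positions and promoters were read from the RefSeq tables of the GRCr8 build. Idi1 lies on chr17:66539761-66547524, Fdps on chr2:176795192-176804816, Fdft1 on chr15:41588114-41616168 and Sqle on chr7:92758175-92773049. Lss lies on chr20:12090641-12118230, and Cyp51 (chr4:30991693-31010147) and Insig1 (chr4:8049339-8057812) share a chromosome. The place of each probe set in its transcript was not analysed here. Promoters of 300 bases, 250 before and 50 after the start, were held for 6 of the 8 genes, not for Fdft1 and Sqle. Of these, 4 are shown because they carry the patterns described further on: Fdps and Idi1, the pair whose signals ran closest together, Cyp51, the gene with the largest liver excess, and Insig1, which ran apart from the enzymes. Capitals mark the CCAAT box, the site bound by NF-Y (CCAAT, or ATTGG on the opposite strand), and the GC box, which Sp1 binds (GGGCGG, or CCGCCC).
Fdps, minus strand, chr2:176804767-176805066: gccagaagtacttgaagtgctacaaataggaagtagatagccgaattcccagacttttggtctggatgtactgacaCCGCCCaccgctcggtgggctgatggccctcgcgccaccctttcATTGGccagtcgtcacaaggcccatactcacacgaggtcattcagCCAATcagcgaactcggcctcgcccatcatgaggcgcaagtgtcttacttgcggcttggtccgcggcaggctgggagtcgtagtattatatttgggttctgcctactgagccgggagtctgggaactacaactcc
Idi1, minus strand, chr17:66547475-66547774: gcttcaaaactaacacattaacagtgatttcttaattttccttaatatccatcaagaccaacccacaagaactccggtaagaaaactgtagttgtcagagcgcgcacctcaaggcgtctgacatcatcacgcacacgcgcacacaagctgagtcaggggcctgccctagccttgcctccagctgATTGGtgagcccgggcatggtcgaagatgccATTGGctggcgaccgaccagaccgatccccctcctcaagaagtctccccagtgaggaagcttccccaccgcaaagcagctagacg
Cyp51, plus strand, chr4:30991443-30991742: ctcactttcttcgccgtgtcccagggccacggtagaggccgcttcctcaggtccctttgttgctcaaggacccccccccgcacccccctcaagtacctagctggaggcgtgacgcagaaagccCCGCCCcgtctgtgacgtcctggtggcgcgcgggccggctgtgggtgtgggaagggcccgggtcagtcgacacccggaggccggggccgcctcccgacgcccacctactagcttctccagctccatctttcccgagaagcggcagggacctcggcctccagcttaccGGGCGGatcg
Insig1, minus strand, chr4:8057720-8058019: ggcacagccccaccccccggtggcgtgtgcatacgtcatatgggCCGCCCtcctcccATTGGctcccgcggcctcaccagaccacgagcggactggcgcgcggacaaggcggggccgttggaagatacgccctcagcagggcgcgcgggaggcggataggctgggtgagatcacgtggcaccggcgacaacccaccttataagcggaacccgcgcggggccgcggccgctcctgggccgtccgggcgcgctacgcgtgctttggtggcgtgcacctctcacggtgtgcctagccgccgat
In the Fdps promoter a CCAAT box lay 130 and another 85 bases before the start, and in that of Idi1 they lay 66 and 35 bases before it. Over the 6 promoters, 5 held a CCAAT box (all but Cyp51) and 5 a GC box (all but Idi1). Of all 33469 promoters of this length, 37.5% held a CCAAT box and 33.1% a GC box. The sterol element, searched as TCACNCCAC on both strands, was in 0 of the 6 windows and in 1.12% of all promoters. A match is a run of letters and not a measured site, and no match speaks only of these windows.

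Liver was the tissue with the highest mean for 5 of the 7 genes (Cyp51, Fdps, Insig1, Idi1 and Fdft1), a share not computed over all genes. Each tissue was set against the mean of the other 5 tissues in a linear model with tissue and age as factors (limma, Benjamini-Hochberg adjustment over 8452 genes at 0.05). In liver 6 of the 7 genes were higher and 0 lower, where 21.6% of all genes tested were higher and 42.7% lower. Their median log2 difference was 1.13, against -0.25 over all genes tested.

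Cyp51, which removes a methyl group from lanosterol, had liver signals of 5241, 5999, 5426 and 6278 at 4, 10, 18 and 24 months. Its highest signal elsewhere was 2179, in hypothalamus at 24 months, so that liver overlapped with no other tissue. The log2 difference was 3.34 (SE 0.21, adjusted p = 2.66e-12), which is 10.1-fold. Fdps, which joins isoprene units into farnesyl diphosphate, read 3825, 6067, 3850 and 5364 in liver and no more than 1866 elsewhere. That difference was 2.20 (SE 0.14, adjusted p = 5.98e-12), and again no array of another tissue reached liver.

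Insig1, the sterol-sensing brake on SREBP, had liver signals of 9116, 4715, 2574 and 3678. Liver was 2.80 above the other tissues on the log2 scale (SE 0.23, adjusted p = 5.32e-10), but its lowest array lay below the highest of spleen lymphocyte, 3666 at 4 months. Idi1, the isomerase of the activated isoprene unit, read 695, 1594, 1413 and 2100 in liver. Its liver difference was 1.13 (SE 0.21, adjusted p = 6.35e-05), yet the 4-month liver signal sat below every hypothalamus and pituitary signal.

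Fdft1, the squalene synthase, read 1158, 1531, 1042 and 1618 in liver, 1.12 above the other tissues (SE 0.15, adjusted p = 1.06e-06). Hypothalamus, at 1479, 1227, 1206 and 745, overlapped with it, and the difference of 0.22 between the pair of tissues was not past the threshold (adjusted p = 0.341). Sqle, the squalene epoxidase, read 204, 380, 285 and 468 in liver, a difference of 0.58 (SE 0.22, adjusted p = 0.022). This call was lost with a floor of 200 (0.09, adjusted p = 0.632) and without the arrays of 10 months (0.52, adjusted p = 0.119), 18 months (0.58, adjusted p = 0.0509) or 24 months (0.36, adjusted p = 0.193). Lss, the cyclase that makes lanosterol, read 282, 445, 396 and 547 in liver and missed the threshold (0.38, SE 0.17, adjusted p = 0.0527), which it passed without the 4-month arrays (0.60, adjusted p = 0.0045) and with quantile normalization (0.58, adjusted p = 0.00394).

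**Figure D1:**
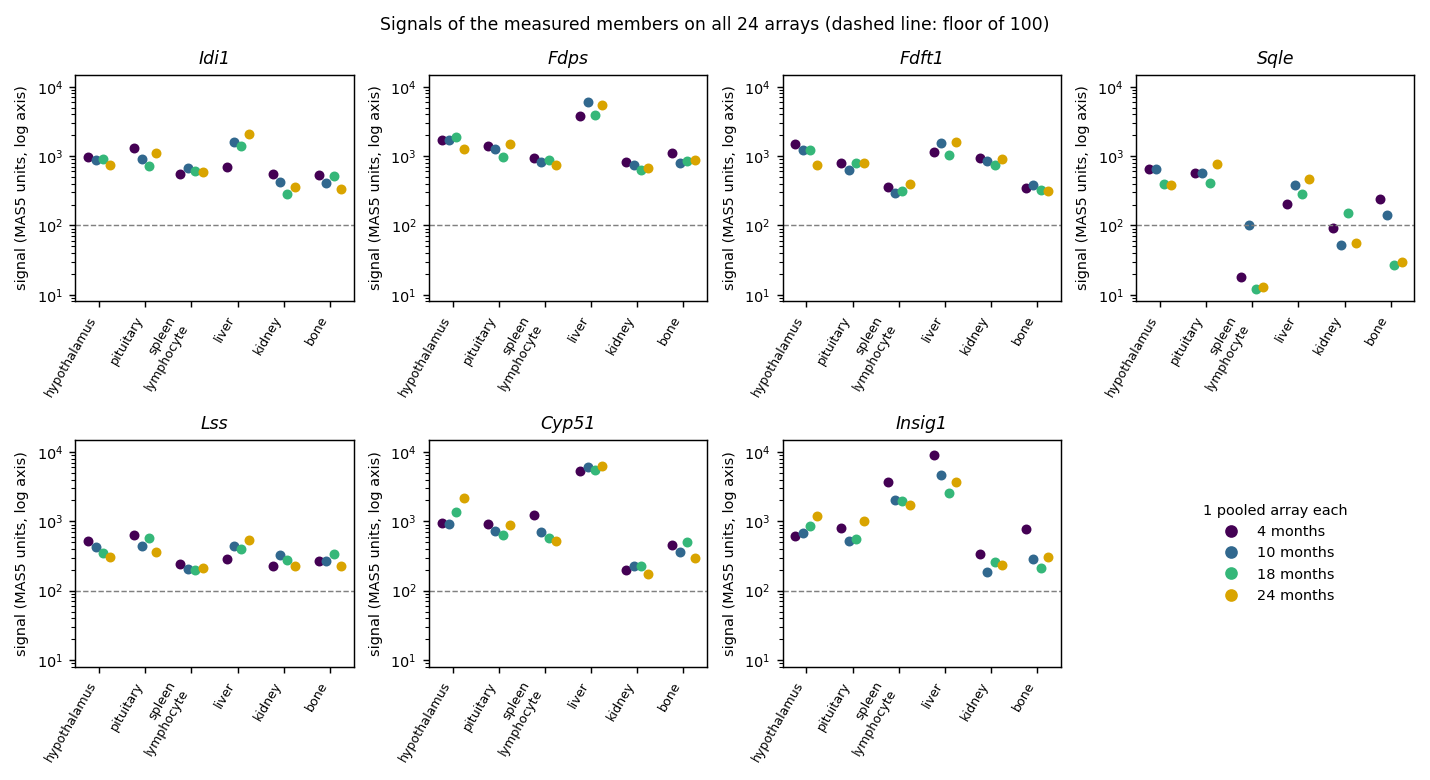
Signal of each measured gene (MAS5 units, log axis) on the 24 arrays, by tissue, with 1 point per age and a dashed line at the floor of 100. Cyp51 and Fdps stand clear of all other tissues in liver, with signals of 5241 to 6278 and of 3825 to 6067, and Sqle falls under the floor on 8 arrays, none of them of hypothalamus, pituitary or liver.

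In hypothalamus 4 of the 7 genes were higher than in the other tissues and 0 lower, where 25.6% of all genes were higher and 33% lower. Sqle stood out most, with signals of 658, 652, 396 and 386 and a log2 difference of 1.39 (SE 0.22, adjusted p = 8.71e-06). Fdft1 was 0.85 higher (SE 0.15, adjusted p = 4.09e-05). Its second probe set gave -0.12 (adjusted p = 0.542), so the call rests on the probe set used. Cyp51, at 955, 912, 1386 and 2179, was 0.74 higher (SE 0.21, adjusted p = 0.00377), a call lost without the 24-month arrays (0.43, adjusted p = 0.0788) and on its second probe set (0.28, adjusted p = 0.41). Fdps, at 1725, 1688, 1866 and 1279, was 0.37 higher (SE 0.14, adjusted p = 0.0307) and missed the threshold without the arrays of 4, 10 or 18 months (adjusted p = 0.0618, 0.101 and 0.211) and with median centring (adjusted p = 0.0712).

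In pituitary 3 of the 7 genes were higher and 0 lower, where 32.2% of all genes were higher and 21.6% lower. Sqle again showed the largest difference. Its signals were 577, 568, 414 and 772, a log2 difference of 1.59 (SE 0.22, adjusted p = 2.03e-06), and they did not differ from hypothalamus past the threshold (0.17, adjusted p = 0.67). The size of the pituitary difference depends on the floor in the same way, with 1.09 to 1.93 over 17 settings. Pituitary and hypothalamus were both higher than liver for Sqle, the latter by 0.67 (SE 0.28, adjusted p = 0.043). Lss, with 633, 445, 573 and 362, was 0.71 higher than in the other tissues (SE 0.17, adjusted p = 0.00113), and pituitary was its highest tissue. Idi1 was 0.58 higher (SE 0.21, adjusted p = 0.0239), with signals of 1290, 899, 716 and 1097, and lost the call without the arrays of 10 months (adjusted p = 0.0639) or 24 months (adjusted p = 0.0884) and with median centring (0.37, adjusted p = 0.12). With that centring Insig1 was lower in pituitary (-0.63, adjusted p = 0.0357).

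Spleen lymphocytes parted the regulator from the enzymes. Insig1 was 1.60 higher on the log2 scale than in the other tissues (SE 0.23, adjusted p = 3.05e-06), with signals of 3666, 2006, 1971 and 1718 that all lay above every hypothalamus, pituitary, kidney and bone array. The enzymes Sqle, Fdft1, Fdps and Lss were lower, so that 1 gene was higher and 4 lower, where 31.1% and 34% of all genes were. Fdft1 read 353, 295, 310 and 401, a difference of -1.24 (SE 0.15, adjusted p = 2.07e-07). Sqle read 18, 102, 12 and 13, so 3 of its 4 arrays were under the floor and the fitted -1.41 (adjusted p = 5.59e-06) is set by that floor. Fdps (-0.77, adjusted p = 5.69e-05) and Lss (-0.74, adjusted p = 0.000562) were lower by less. Idi1 (-0.26) and Cyp51 (-0.27) missed the threshold, which Cyp51 passed without the 4-month arrays (-0.54, adjusted p = 0.0384).

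Kidney had the lowest mean of the 6 tissues for 4 of the 7 genes (Cyp51, Insig1, Fdps and Idi1), a share not computed over all genes. It differed from the next lowest tissue past the threshold for Cyp51 (adjusted p = 0.00443). For Insig1 (adjusted p = 0.184), Fdps (0.275) and Idi1 (0.623) it did not. In kidney 5 of the 7 genes were lower, where 31.4% of all genes were, and 1 was higher, where 23.6% were. Cyp51 read 196, 227, 229 and 172 in kidney, a log2 difference of -2.43 from the other tissues (SE 0.21, adjusted p = 1.12e-09), and no array of another tissue was as low. Insig1 read 342, 184, 261 and 232, a difference of -2.21 (SE 0.23, adjusted p = 4.18e-08). Fdps (-1.06), Idi1 (-1.01) and Sqle (-1.25) were lower too, Sqle with 3 of 4 arrays under the floor. Fdft1 was the exception at 0.37 higher (SE 0.15, adjusted p = 0.0404), with signals of 933, 858, 743 and 902. That call was lost when any 1 age was left out (adjusted p = 0.0675 to 0.108), with a pseudocount of 50 (adjusted p = 0.0536) and on its second probe set (0.27, adjusted p = 0.161).

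In bone 6 of the 7 genes were lower and 0 higher, where 26.8% of all genes were lower and 27.4% higher. Insig1 read 786, 291, 212 and 305, a difference of -1.62 (SE 0.23, adjusted p = 3.73e-06). Cyp51, at 451, 361, 505 and 296, gave -1.29 (SE 0.21, adjusted p = 1.51e-05). Fdft1 (-1.24), Sqle (-0.90), Idi1 (-0.80) and Fdps (-0.66) were lower as well, the first only on the probe set used (second probe set -0.16, adjusted p = 0.419). Sqle read 237, 140, 27 and 30, so its arrays of 18 and 24 months were under the floor, which sets part of its difference. Lss missed the threshold with -0.31 (adjusted p = 0.128) and passed it with quantile normalization (-0.44, adjusted p = 0.0276). Bone is a mixed tissue, and its summed osteoblast marker signal went from 91997 at 4 months to 33514 at 24 months while that of erythroid and neutrophil markers went from 65866 to 134799. The part of that mixture in these values was not tested.

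**Figure D2:**
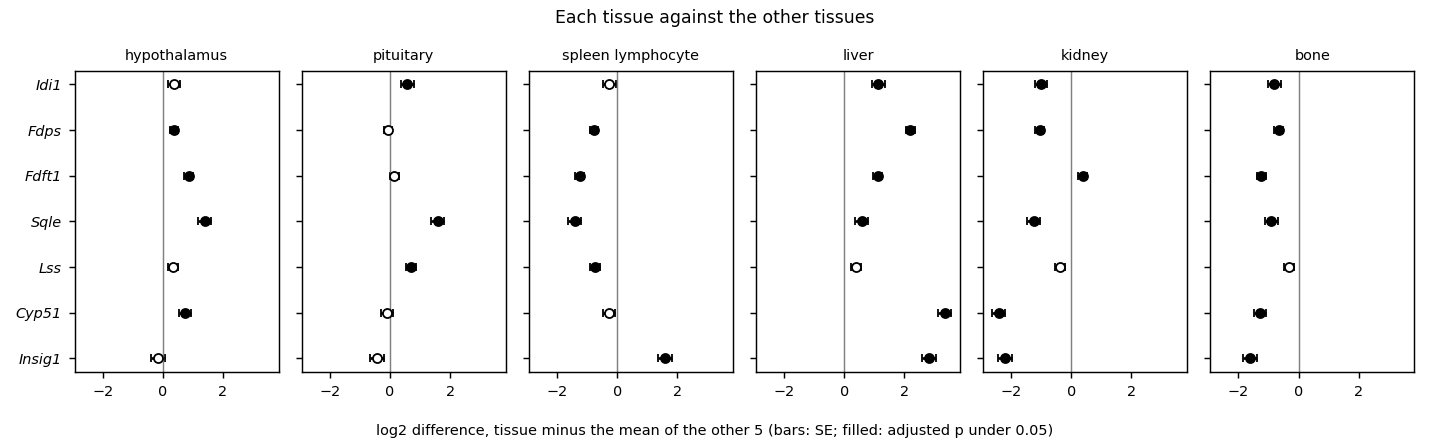
Log2 difference of each tissue from the mean of the other 5, with its SE, for the 7 measured genes. Filled points pass an adjusted p of 0.05, and liver shows 6 of them to the right while kidney shows 5 and bone 6 to the left.

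Ordered by mean, the genes thus made different ladders of tissues. Of the 105 pairs of tissues over the 7 genes, 78 differed past the threshold, where 54.5% of the tissue pairs of all genes did. The count ran from 9 of 15 pairs for Idi1 and Lss to 14 of 15 for Cyp51. Steps between neighbours in the order of a gene are a description only, since that order was set by the means that are compared. The share of such steps over all genes was not computed. For Fdps the geometric mean signal fell from 4679 in liver to 1624 in hypothalamus, 1258 in pituitary, 895 in bone, 842 in spleen lymphocyte and 714 in kidney, and the steps from liver and from pituitary passed. For Cyp51 it fell from 5721 in liver through 1274 in hypothalamus, 782 in pituitary, 711 in spleen lymphocyte and 395 in bone to 204 in kidney, and only the step from pituitary to spleen lymphocyte did not pass. Insig1 ran 4491 in liver, 2234 in spleen lymphocyte, 814 in hypothalamus, 697 in pituitary, 349 in bone and 249 in kidney. Of its steps, those from hypothalamus to pituitary and from bone to kidney did not pass. Idi1 had no neighbouring step past the threshold, from 1346 in liver to 390 in kidney. The means of Lss spanned least, from 492 in pituitary to 213 in spleen lymphocyte, with 1 step past the threshold, from hypothalamus to bone.

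Genes next to these in sterol metabolism were taken from lists chosen with earlier results of these data known. Of 10 other cholesterol synthesis enzymes tested, all 10 were higher in liver than in the other tissues, with a median log2 difference of 2.11. Nsdhl and Tm7sf2, which act on the sterol ring after Cyp51, were 4.23 (SE 0.18) and 3.34 (SE 0.17) higher, with adjusted p = 2.24e-15 and 1.15e-13. In bone 9 of the 10 were lower and 0 higher, where 26.8% of all genes were lower and 27.4% higher. Of 7 genes of the sterol-sensing machinery, 3 were higher in liver and 3 lower, where 21.6% and 42.7% of all genes were. Insig2, the second INSIG protein, was 2.67 higher in liver (SE 0.24, adjusted p = 1.37e-09) but lower in spleen lymphocyte (-2.38, SE 0.24, adjusted p = 8.76e-09), where Insig1 was higher. Srebf1, which encodes SREBP-1, was 1.25 higher in liver (adjusted p = 3.84e-05), while the difference of Srebf2 missed the threshold there.

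Age was tested over the 6 tissues in the same model. None of the 7 genes was called between 4 and 10, 10 and 18, 18 and 24 or 4 and 24 months (0 of 7 in each), where 0% of the 8452 genes were called. At an unadjusted p under 0.05, 450, 226, 246 and 528 genes passed in these comparisons, and 1 of the 7 genes did so once. That was Insig1 from 4 to 10 months, with a log2 difference of -0.77 (SE 0.25, adjusted p = 0.725), and its 10-month signal was lower in 5 of 6 tissues.

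Single steps of age within a tissue rest on 1 array against 1 and have no test. A 2-fold difference with both signals at 100 or more was therefore used as a size. Over 6 tissues and 3 steps of age, 118 of the 126 steps of the 7 genes could be read, and 2 passed 2-fold, where 3.85% of all gene steps did. One was Idi1 in liver, from 695 at 4 months to 1594 at 10 months (2.29-fold). On its second probe set these signals were 532 and 1011, which is under 2-fold. The other was Insig1 in bone, from 786 to 291 over the same ages (2.70-fold lower). Between 4 and 24 months, 39 of 42 pairs could be read and 7 passed 2-fold, and shares of all genes are given by tissue. None passed in pituitary, where 1.5% of all genes did, or in kidney, where 0.941% did. In liver, Idi1 was 3.02-fold and Sqle 2.30-fold higher and Insig1 2.48-fold lower, where 4.79% of all genes passed. The second probe set of Idi1 read 532 and 816 at these ages, which is under 2-fold. In spleen lymphocyte Insig1 was 2.13-fold and Cyp51 2.37-fold lower, where 3.83% of all genes passed. The second probe set of Cyp51 read 366 and 198 there, which is lower too but under 2-fold. In bone Insig1 was 2.58-fold lower, where 11.2% passed. In hypothalamus Cyp51 was 2.28-fold higher, where 8.01% passed, while its second probe set read 738 and 243, the other way.

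Within liver the 6 enzymes shared 1 course. Each had its 10-month and its 24-month signal above both its 4-month and its 18-month signal, an order that 16.2% of the 6936 genes readable on all 4 liver arrays had. For 5 of the 6, all but Fdft1, the 4-month signal was the lowest of the 4, as it was for 28.3% of these genes. Insig1 went another way, from 9116 at 4 months to 4715, then 2574, then 3678. This order was noticed after the values were seen, so it is given as a description only. It held for the same number of genes, 6 of 7, with quantile normalization and with median centring. The second probe sets of Idi1 (532, 1011, 633 and 816), Fdft1 (572, 594, 498 and 760) and Cyp51 (1730, 2249, 1860 and 1895) also had this order. Those of Fdft1 (594 at 10 against 572 at 4 months) and Cyp51 (1895 at 24 against 1860 at 18 months) had it narrowly.

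Neighbouring pathways in liver ran along with the enzymes or against them. Of the 10 other cholesterol synthesis enzymes, 6 had the same order, among them Msmo1, the methylsterol oxidase, with 1595, 2550, 1807 and 2386. Sc5d, the sterol desaturase, did not, with 3069 at 4 months and 1179 at 10 months. Of 13 genes of fatty acid synthesis, 0 had it and 11 were highest at 4 months (22.5% of all genes). All 13 were lower at 10 than at 4 months, where 49.9% of 6936 genes were higher. Scd, the stearoyl desaturase, read 10195, 2640, 5986 and 7423, and Fasn, the fatty acid synthase, 5385, 2647, 2960 and 4639. Cyp7a1, the rate-limiting enzyme of bile acid synthesis, read 4450 at 4 months and 766 to 1387 later. The bile acid list did not move as 1. Its log2 ratio of 24 to 4 months was -1.68 for Cyp7a1 and -1.91 for Nr0b2, but 1.81 for Cyp8b1 and 1.22 for Akr1d1. The summed signal of its 11 measured genes was 45596, 55967, 47911 and 49463. A measure of RNA quality, the log2 ratio of 3′ to 5′ Gapdh signal, was 1.77, 1.75, 2.06 and 0.74 on these 4 arrays. That of Actb was 2.85, 2.74, 2.61 and 1.43, and the part of either in these courses was not tested.

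**Figure D3:**
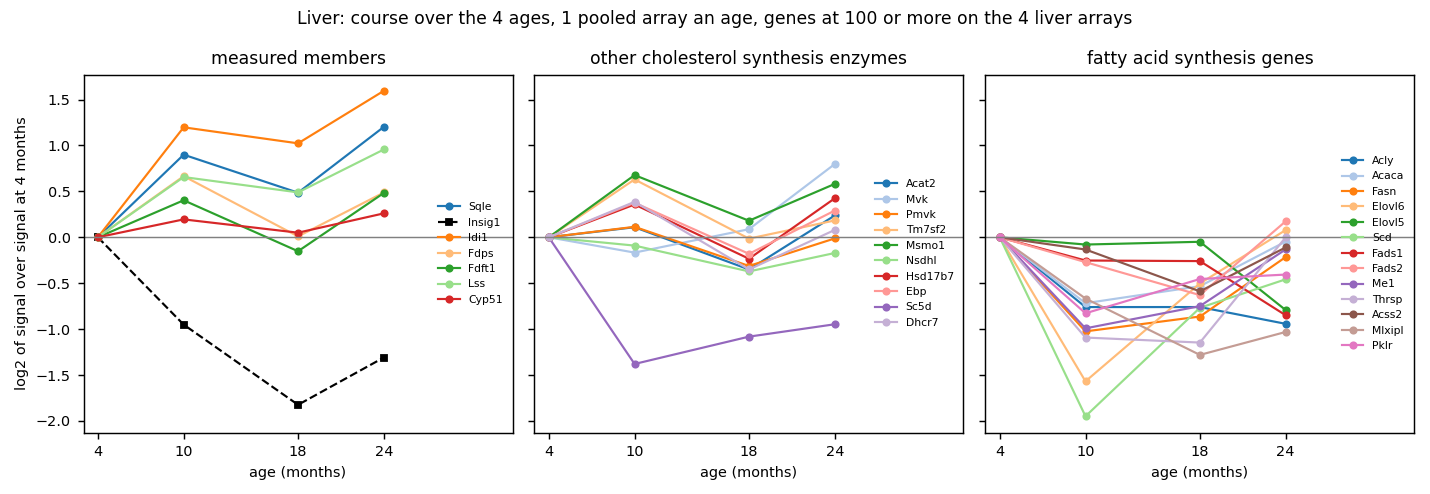
Log2 of the liver signal over that at 4 months, at each age in months, for the measured members (left), the other cholesterol synthesis enzymes (middle) and the fatty acid synthesis genes (right), with 1 pooled array an age. The 6 enzymes lie higher at 10 and 24 months than at 4 and 18, and Insig1 (dashed) lies lowest at 18 months. All 13 fatty acid genes lie under their 4-month level at 10 months, where 49.9% of 6936 genes lie above it.

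Pituitary showed another shared course, with both ends above the middle. For 6 of the 7 genes, Insig1 included and Lss excepted, the signals at 4 and 24 months were both above those at 10 and 18 months, an order that 15.9% of 7582 genes had. This order too was noticed after the values were seen and is only a description. Fdft1 had it narrowly, with 795 at 24 and 786 at 18 months. Idi1 read 1290, 899, 716 and 1097. Insig1 read 801, 520, 557 and 1018, and Cyp51 904, 719, 643 and 896. Between 18 and 24 months the median log2 ratio of the 7 genes was 0.60, against -0.0029 over all genes, and none reached 2-fold. The count was again 6 of 7 under both other scalings, and 2 of the 3 readable second probe sets had the order (Idi1 and Fdft1, not Cyp51). In the other tissues the genes split, with no pair of ages on top for more than 3 of them.

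The late ages (18 and 24 months) were then set against the early ones (4 and 10 months) within each tissue, with a spread taken over all 12 pairs of arrays. None of the 7 genes passed the threshold in any tissue. Over all genes, 1.7% were called in hypothalamus, 0.296% in bone, 0.237% in spleen lymphocyte, 0.0473% in liver and 0% in kidney and pituitary. Over all tissues the mean difference called 0.0118% of the genes and no member, and the test for a difference between tissues called 0.745% and no member. At an unadjusted p under 0.05 there were 2 of the 7 in hypothalamus and 1 each in spleen lymphocyte, liver and bone. Kidney and pituitary had 0. Of all genes, 11.3% passed that limit in hypothalamus, 7.11% in spleen lymphocyte, 7.34% in liver and 14.9% in bone. In kidney 5.32% and in pituitary 2.09% did. The mean difference had 0 such members, where 7.68% of all genes passed. The test for a difference between tissues had 1, Cyp51, where 11.4% passed.

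Hypothalamus gave the lowest adjusted p of these, for Cyp51. It went from 955 and 912 to 1386 and 2179, with a log2 difference of 0.90 (SE 0.30, adjusted p = 0.189). Sqle ran the other way there, from 658 and 652 to 396 and 386 (-0.74, SE 0.33, adjusted p = 0.387). The early and the late signals of both genes did not overlap. Of 7270 genes readable on all 4 hypothalamus arrays, 20.7% had both early signals above both late ones and 19.4% the reverse. Fdft1 and Lss shared the order of Sqle, and Insig1 shared that of Cyp51. The direction of Cyp51 holds for the probe set used only, since its second one read 738 and 521 early and 246 and 243 late. The log2 ratio of 3′ to 5′ Actb signal was 1.89 and 3.09 on the early and 1.21 and 1.10 on the late hypothalamus arrays. That of Gapdh was 0.45 and 0.36 on the early and 0.27 and 0.29 on the late ones. The part of either ratio in these differences was not tested. Without the 10-month array of this tissue, which held hepatocyte markers, and those of 18 months from kidney and bone, again 0 of the 7 genes passed.

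Bone and liver gave the next. In bone Sqle went from 237 and 140 to values under the floor, 27 and 30 (-0.87, SE 0.33, adjusted p = 0.225). Insig1 in bone had 786 and 291 early and 212 and 305 late (-0.91, SE 0.44, adjusted p = 0.342), and the value rests on the 4-month array. Without the 4-month arrays it was -0.20 (adjusted p = 1.0), and without the 10-month arrays it passed the threshold (-1.63, adjusted p = 0.0292). The latter leaves the 4-month array, the one of lowest weight (0.317), alone on the early side and takes its spread from the other groups. From 4 to 24 months the summed osteoblast marker signal in bone read 91997, 57184, 42084 and 33514, and that of erythroid and neutrophil markers 65866, 96869, 108967 and 134799. Their part in the Sqle and Insig1 values was not tested. Liver Insig1 gave -1.09 (SE 0.44, adjusted p = 0.551), and liver Idi1 gave 0.71 (SE 0.34, adjusted p = 0.683), against -0.03 on its second probe set. Spleen lymphocyte Cyp51, from 1221 and 707 to 576 and 516, gave -0.77 (SE 0.30, adjusted p = 0.596). Its 4-month array also had the highest Actb ratio of the series, 3.74, and the part of that was not tested.

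**Figure D4:**
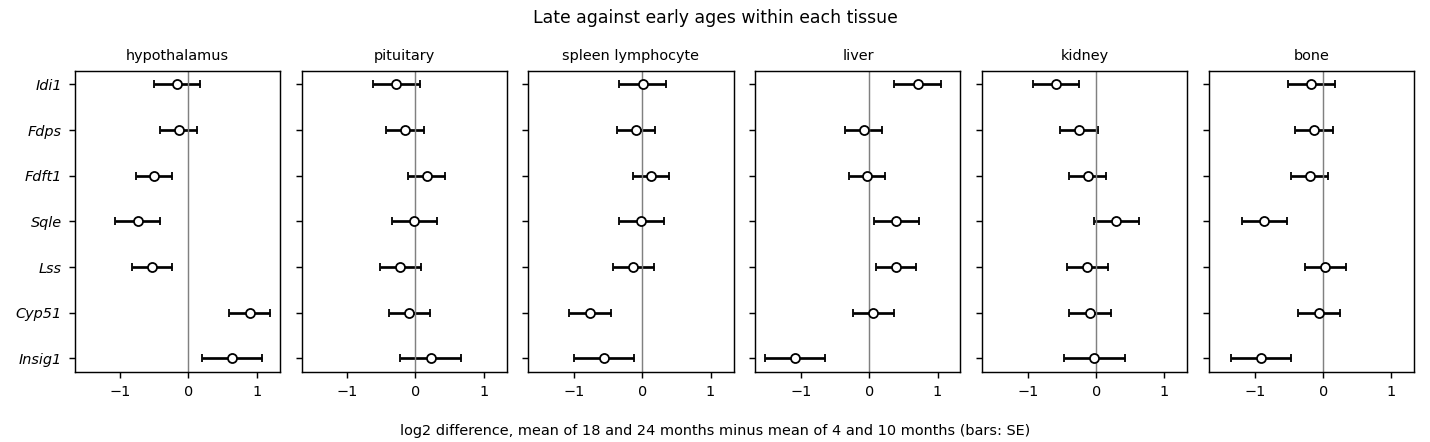
Log2 difference between the late (18 and 24 months) and the early ages (4 and 10 months) in each tissue, with its SE, for the 7 measured genes. All points are open because none passed an adjusted p of 0.05, and the points farthest from 0 are Insig1 in liver (-1.09) and in bone (-0.91).

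Second probe sets were at hand for Idi1, Fdft1, Lss and Cyp51. That of Lss was under 100 on all 24 arrays and could not be read. For Cyp51 in hypothalamus the probe sets ran against each other. The one used read 955, 912, 1386 and 2179, and the other 738, 521, 246 and 243, a late difference of -1.34 (SE 0.46, adjusted p = 0.15). For Idi1 the late differences of its probe sets had opposite signs in 4 of 6 tissues, and for Fdft1 in 2 of 6. For Cyp51 they did in 3 of the 4 tissues where its second probe set reached 100 on all 4 arrays. Some of these signs belong to differences near 0. Examples are Cyp51 in pituitary (-0.09 and 0.06) and liver (0.06 and -0.07), and Fdft1 in liver (-0.04 and 0.08). Among the larger ones were Fdft1 in bone (-0.20 and 0.70) and Idi1 in liver (0.71 and -0.03). In spleen lymphocyte both Cyp51 probe sets gave values below 0 (-0.77 and -1.02). The liver excess was alike on both probe sets of Cyp51 (3.34 and 3.05) and of Idi1 (1.13 and 1.42), and for Fdft1 the second gave 0.68 in place of 1.12. All of these passed the threshold.

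**Figure D5:**
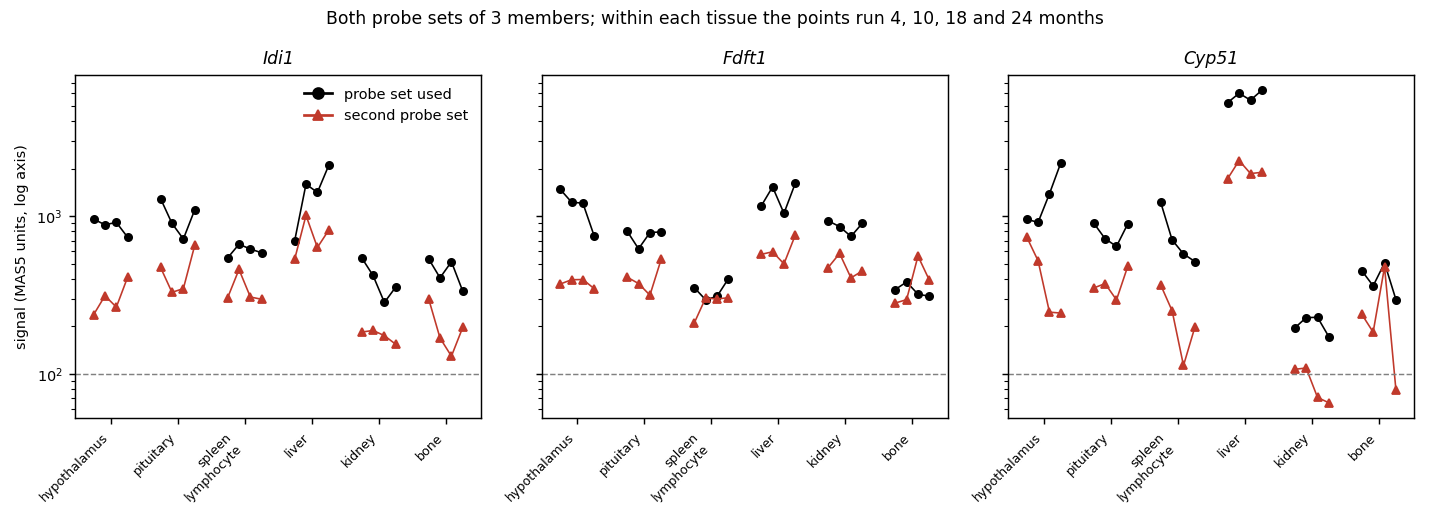
Signal (MAS5 units, log axis) of the probe set used (black circles) and of the second probe set (red triangles) of Idi1, Fdft1 and Cyp51, with the 4 ages in order within each tissue. In hypothalamus the Cyp51 probe sets part with age, to 2179 and 243 at 24 months, while in liver both have 10 and 24 months above 4 and 18 months.

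How closely the genes followed each other was read from the 24 arrays after the mean of each tissue was taken out. Arrays of a tissue share its cell makeup and arrays of an age share their rats, so these correlations describe the arrays and carry no p. Fdps followed the mean of the other 6 genes closest (Pearson r = 0.74), then Sqle (0.54) and Idi1 (0.49). Fdft1 gave 0.33, Cyp51 0.20, Lss 0.19 and Insig1 0.05. The closest pair was Fdps and Idi1 (0.70), and Insig1 and Lss ran most against each other (-0.45).

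Among 8445 genes outside the group, Msmo1, which acts on the sterol ring after Cyp51, had the highest correlation with the mean of the 7 (r = 0.84). After it came Rcan1 (0.75), Rnaseh1 (0.75), P4ha2 (0.73), Atp1b3 (0.72), Tie1 (0.72), Id3 (0.71), Lum (0.71), Kctd10 (0.70) and Cfl2 (0.70), none of them on any list of sterol genes. The 10 other cholesterol enzymes had a median of 0.30, from -0.24 for Sc5d to 0.84, and all genes a median of -0.0015. The 13 genes of fatty acid synthesis had a median of -0.0097.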

How the data were processed

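Male rats of 4 ages were measured on Affymetrix RAE230A arrays. Per the labels and methods, the authors computed the deposited intensities with MAS5 (version not given in the sources), as linear signals with each array scaled to a target intensity of 500. No background was left to subtract, and 0 columns were left unmapped. Depth has no meaning for arrays, and their number limits the precision.

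Probe sets were named through the platform annotation: of 15866 without controls, 12783 had 1 symbol, 312 several and 2771 none. Of several probe sets of a gene, the one at 100 or more on the most arrays was kept. Signals were floored at 100, and log2 values of the 8452 genes at the floor or more on at least 12 arrays were fitted with limma 3.58.1 in R 4.3.3. The model held tissue and age (15 residual degrees of freedom), or 12 means of tissue and stage (12 residual degrees of freedom). The age term is the block, because each age has 1 set of 10 rats for all tissues. P-values were adjusted by Benjamini-Hochberg at 0.05 over all genes. They do not measure a spread between separate pools of an age, because no age has more than 1 set of rats. In the fit with tissue and age, the error is what these terms leave over, across tissues of the same rats. In the fit with tissue and stage (early or late), the error is the difference between the ages of a stage within a tissue. Any change between those ages therefore counts as error there.

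The fits were tested on simulated data. Correlations used values with the tissue means taken out. Python 3.11.15, numpy 2.4.6 and pandas 2.3.3 were used. The members, the lists and the tests were chosen with earlier results of these data known. Named genes are the 7 measured members, list genes past the threshold or 2-fold (up to 4 per list and direction, of which part are printed), and the 10 genes of highest correlation. Genes named for their course in liver were picked after their values were seen. Alternatives were other floors, scalings, filters, probe set rules, array weights, no age term and ages or tissues left out.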

Additional observations from a re-analysis of the deposited data

Results flagged for a closer look

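For each of the 7 measured genes, the 4 ages within each tissue were searched for an array that stands apart, by Dixon's ratio of the gap to the range at its 95% limit. Of 42 sets examined 3 were picked out, where 1 in 20 would give 2.1. Sqle in spleen lymphocyte stood apart at 10 months (ratio 1.0), with a signal of 102 against 3 arrays under the floor of 100. Sqle in kidney stood apart at 18 months (ratio 1.0), with 150 against 3 arrays under the floor. In both sets the ratio is full because values under the floor were made equal. Fdft1 in pituitary was low at 10 months (ratio 0.917), with 621 against 786 to 803 at the other ages. The kidney array of 18 months is also among those with the lowest array weights (0.375), and the part of this in the Sqle value was not tested.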

How the results depend on the processing

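Over the tissue comparisons, 30 differences of the 7 genes were called, and the count per tissue stayed within 1.5 times under every alternative run. Of 672 single values, 640 kept their call, 19 lost it and 13 gained it, with 0 called values reversed. Calls of Cyp51, Fdps, Idi1, Fdft1 and Insig1 in liver held under all 17 settings. Without the age term, that is with no replicate block, 31 differences were called, Lss in liver being added (adjusted p = 0.0456). Without the 10-month hypothalamus and the 18-month kidney and bone arrays, a setting chosen after seeing the data, 29 were called. For age, 0 members were called in each of the alternatives. Late against early, the count was 0 in all settings but 1, with a range of 0 to 1 when an age was left out.

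The 2-fold count depends on its limit. It was 2 as reported, 26 at 1.5-fold (16.7% of all gene steps), 0 at 3-fold (0.549%) and 7 with no floor (13.5%). Cyp51 in hypothalamus, 2.28-fold higher at 24 than at 4 months, turned to -0.21 on the log2 scale when its probe sets were averaged, since the second falls with age. Low signals limit Sqle most, which was under the floor on 8 arrays. Without replicate arrays, a change in 1 tissue at 1 age cannot be told from an array's own error.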
